A study of Mus musculus with 6 samples.

Results

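Expression of 10 genes of the bone morphogenetic protein (BMP) pathway was compared between mouse embryonic stem cells given CHIR99021 and cells given XAV939. The genes were the ligand gene Bmp4, the receptor gene Bmpr1a, the target genes Id1, Id2, Id3, Id4, Msx1 and Msx2, and the inhibitor genes Smad6 and Bambi. They were chosen by name, with earlier results of these data known, and matched to the array through the platform's probe annotation. All 10 were found, each on 1 probe set that names no other gene, among 19937 genes measured. A probe set is the group of short probes that reads 1 transcript region.

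The samples were 6 one-colour Affymetrix arrays of total RNA, 3 of cells given CHIR99021 and 3 of cells given XAV939, each for 24 h. CHIR99021 inhibits the kinase GSK3 and so stabilises β-catenin. XAV939 inhibits tankyrase, which stabilises Axin and lowers β-catenin. CHIR99021 was used at 3 µM. For XAV939 the sources differ, with 3 µM on each sample's label and 1 µM in the protocol text. Both groups were the same V6.5 line with a knock-in of Biotin and 3xFLAG tags at Ctnnb1, the gene of β-catenin, and with BirA, the biotin ligase (Ctnnb1-BioFLneo;BirA). Both were kept in serum with LIF, a cytokine that holds these cells undifferentiated, with feeder cells from DR4 mice. The 6 arrays include no untreated cells, so no difference was assigned to either compound. Here rose and fell mean higher and lower with CHIR99021 than with XAV939. The labels name 1 line and do not say whether replicates were separate cultures, so p-values measure only the spread between these arrays, which may be technical.

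BMP ligands bind a pair of receptor types at the cell surface, and the activated receptor phosphorylates SMAD1, SMAD5 and SMAD9, which enter the nucleus with SMAD4. The Id genes are among the best known direct targets of this pathway, and their products bind and sequester E proteins, the partners of many lineage-specifying helix-loop-helix factors. In mouse embryonic stem cells BMP signalling is known to support self-renewal together with LIF, in part through Id proteins. The Msx genes, Id2, Bambi and Bmp4 have also been described as genes that respond to β-catenin in other cells.

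The arrays had median log2 levels between 5.67 and 5.71 over all probe sets. Correlations across genes were 0.997 to 0.999 within a treatment and 0.994 to 0.995 between treatments. Expression of all 10 pluripotent cell markers examined lay above the median of all probe sets. Pou5f1, which encodes the pluripotency factor OCT4, averaged 11.33 ± 0.10 (log2, SD, n = 3) on the CHIR99021 arrays and 11.51 ± 0.06 (SD, n = 3) on the XAV939 arrays.

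Bmp4, Id1, Id3, Msx1 and Msx2 were higher with CHIR99021 than with XAV939, and Id2 was lower. Id4, Bmpr1a, Smad6 and Bambi did not pass the test. Thus 5 of the 10 genes rose and 1 fell in limma's moderated test (Benjamini-Hochberg adjusted p under 0.05), where 5.31% of all genes rose and 4.34% fell (9.65% in either direction). Arrays of the 2 treatments were fully separated for 8 of the 10 genes, 6 higher and 2 lower, against 25.1% of all genes (14.1% higher and 11.0% lower). The median log2 difference, CHIR99021 minus XAV939, was 0.30 over the 10 genes and 0.0066 over all genes, and the median absolute difference was 0.45 and 0.062. All 10 genes passed a filter at the 50th percentile of level. When only the 11283 genes that passed it were tested, 1035 rose and 836 fell, against 1058 and 866 of all 19937 genes. The shares that rose and fell were thus larger among these more strongly expressed genes. How much of the contrast between the 10 genes and all genes goes with level was not tested. Because the 10 genes were chosen with earlier results of these data known, their contrast with all genes is a description and not a test.

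**Figure D1:**
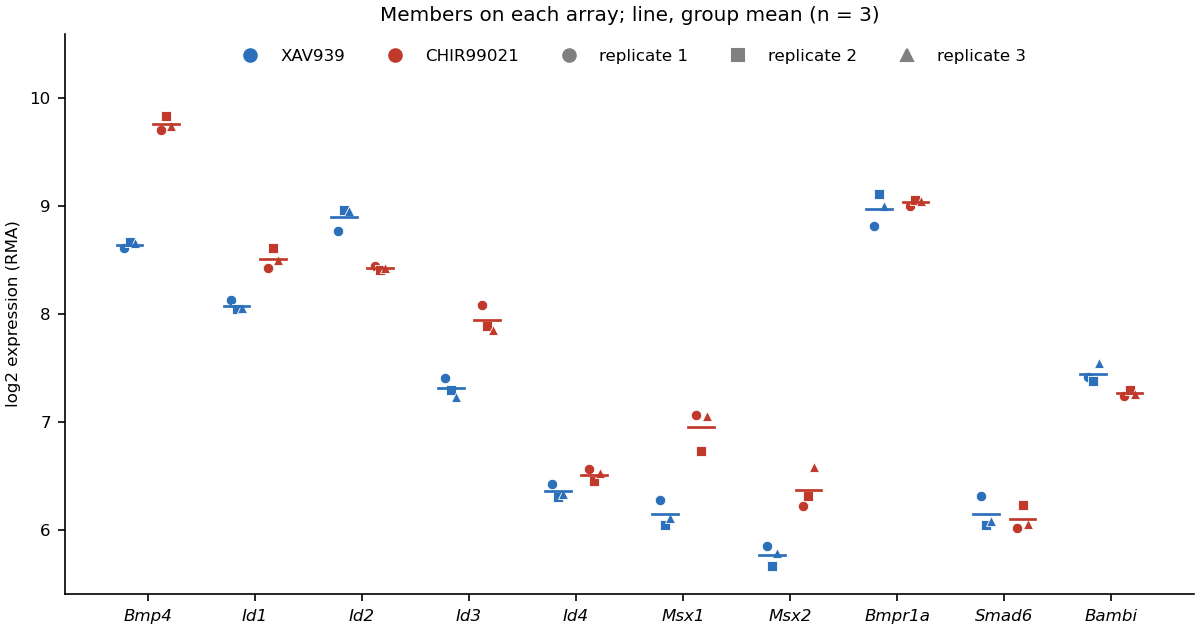
Log2 expression (RMA) of the 10 genes on each of the 6 arrays, with XAV939 in blue, CHIR99021 in red, symbols for replicate numbers and a line at each group mean (n = 3). Bmp4 is separated by a gap of 1.04 between the groups, Id2 lies in the opposite order from Id1 and Id3, and the groups overlap for Bmpr1a and Smad6.

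Bmp4 encodes the secreted ligand of the pathway. Its log2 level was 9.71, 9.83 and 9.74 on CHIR99021 replicates 1, 2 and 3 and 8.61, 8.67 and 8.65 on XAV939 replicates 1, 2 and 3. Every CHIR99021 array was above every XAV939 array, by at least 1.04, and the arrays of 1 treatment lay close together. The difference was 1.12 ± 0.05 (SE), or 2.17-fold, and limma gave an adjusted p of 9.68e-07. This was the only one of the 10 genes that differed at least 2-fold, and its absolute difference ranked 56 among the 19937 genes.

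Id1, an inhibitor of helix-loop-helix factors that lacks a DNA-binding region, had log2 levels of 8.43, 8.61 and 8.50 with CHIR99021 and 8.13, 8.05 and 8.05 with XAV939. The groups were separated, with replicate 2 the highest of the CHIR99021 arrays. The difference was 0.44 ± 0.06 (SE), or 1.35-fold (limma, adjusted p = 0.00102). Id3, a second member of this family, was at 8.08, 7.88 and 7.85 with CHIR99021 and at 7.41, 7.30 and 7.23 with XAV939. In both groups replicate 1 was the highest array, and the groups again did not overlap. Id3 rose by 0.63 ± 0.07 (SE), or 1.55-fold (limma, adjusted p = 3.11e-04).

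Id2 moved the other way from Id1 and Id3. Its log2 level was 8.44, 8.41 and 8.43 on the CHIR99021 arrays and 8.77, 8.97 and 8.96 on the XAV939 arrays. The CHIR99021 values were nearly equal (SD 0.015), and XAV939 replicate 1 was the lowest of its group but still above all CHIR99021 arrays. Id2 was 1.39-fold lower with CHIR99021, a difference of -0.47 ± 0.06 (SE; limma, adjusted p = 7.58e-04). Without XAV939 replicate 1 the difference was -0.54, and it stayed between -0.54 and -0.44 when any 1 array was left out.

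Id4, the remaining member of the family, had log2 levels of 6.56, 6.45 and 6.52 with CHIR99021 and 6.43, 6.30 and 6.33 with XAV939. The lowest CHIR99021 array exceeded the highest XAV939 array by 0.02. The difference of 0.16 (95% interval 0.028 to 0.28, unadjusted) did not pass after adjustment over all genes (limma, adjusted p = 0.142). Within the Id family, then, 2 genes rose, 1 fell and 1 did not pass.

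Msx1 and Msx2 encode homeodomain proteins that act mainly as transcriptional repressors and are induced by BMP in many embryonic tissues. Msx1 was at 7.07, 6.73 and 7.05 with CHIR99021 and at 6.27, 6.04 and 6.11 with XAV939 (log2). CHIR99021 replicate 2 was the lowest of its group, yet lay above all XAV939 arrays. Msx1 rose by 0.81 ± 0.09 (SE), or 1.75-fold (limma, adjusted p = 2.97e-04). Msx2 was at 6.22, 6.31 and 6.58 with CHIR99021 and at 5.85, 5.66 and 5.78 with XAV939. Here CHIR99021 replicate 3 was the highest array, and the groups did not overlap. Msx2 rose by 0.61 ± 0.09 (SE), or 1.52-fold (limma, adjusted p = 0.00151). Without CHIR99021 replicate 3 the difference was the smallest of those with 1 array left out, at 0.50.

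Bmpr1a encodes a type I BMP receptor with a kinase domain. Its log2 level was 9.00, 9.06 and 9.05 with CHIR99021 and 8.82, 9.11 and 9.00 with XAV939. The groups overlapped, and XAV939 replicate 1 was the lowest array. The difference was 0.060 (95% interval -0.10 to 0.22) and did not pass (limma, adjusted p = 0.752). Without XAV939 replicate 1 it was -0.019.

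Smad6 and Bambi encode feedback inhibitors of the pathway, an inhibitory SMAD and a pseudoreceptor without a kinase domain. Smad6 was at 6.02, 6.23 and 6.05 with CHIR99021 and at 6.31, 6.04 and 6.08 with XAV939. The groups overlapped, with CHIR99021 replicate 2 and XAV939 replicate 1 above the others. The difference was -0.045 (95% interval -0.23 to 0.14; limma, adjusted p = 0.857), and it was 0.038 without XAV939 replicate 1. Bambi was at 7.24, 7.30 and 7.26 with CHIR99021 and at 7.42, 7.38 and 7.54 with XAV939. All CHIR99021 arrays were below all XAV939 arrays, by at least 0.083. Its difference of -0.18 (95% interval -0.31 to -0.052, unadjusted) did not pass after adjustment over all genes (limma, adjusted p = 0.0864).

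**Figure D2:**
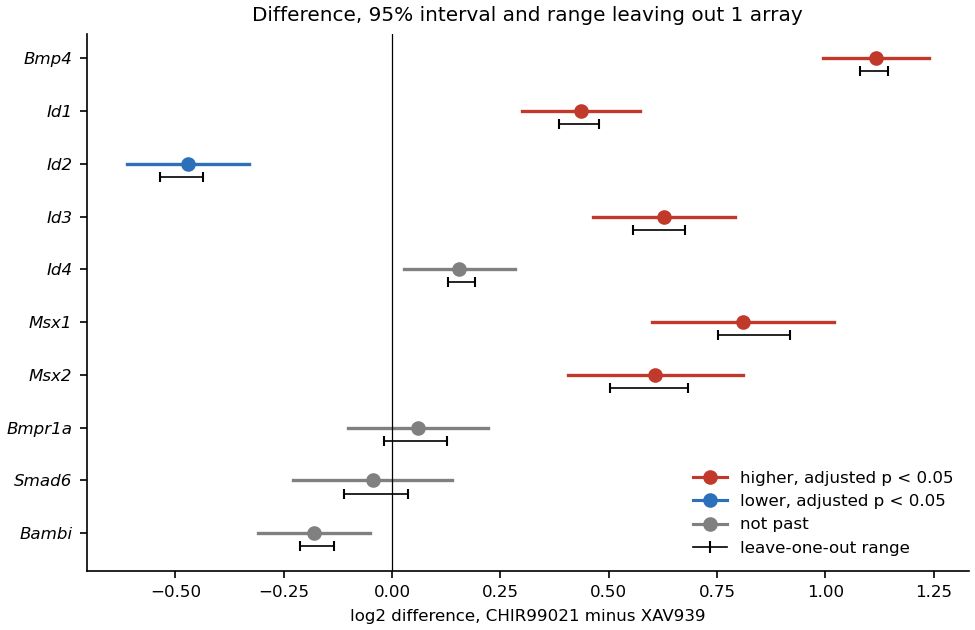
Log2 difference between CHIR99021 and XAV939 for each of the 10 genes, with the 95% interval of the limma fit (coloured bars, 3 arrays a group) and the range when 1 array is left out (black bars). The intervals, which are unadjusted, lie above 0 for Bmp4, Id1, Id3, Id4, Msx1 and Msx2 and below it for Id2 and Bambi. Id4 and Bambi did not pass after adjustment over all genes. Both the intervals and the black bars of Bmpr1a and Smad6 cross 0.

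All 6 calls were kept when any 1 of the 6 arrays was left out. Except for that of Bmp4, they rested on limma's pooling of variance between genes. With ordinary least squares Bmp4 alone was called, and the adjusted p of the other 5 was between 0.0542 and 0.111.

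**Figure D3:**
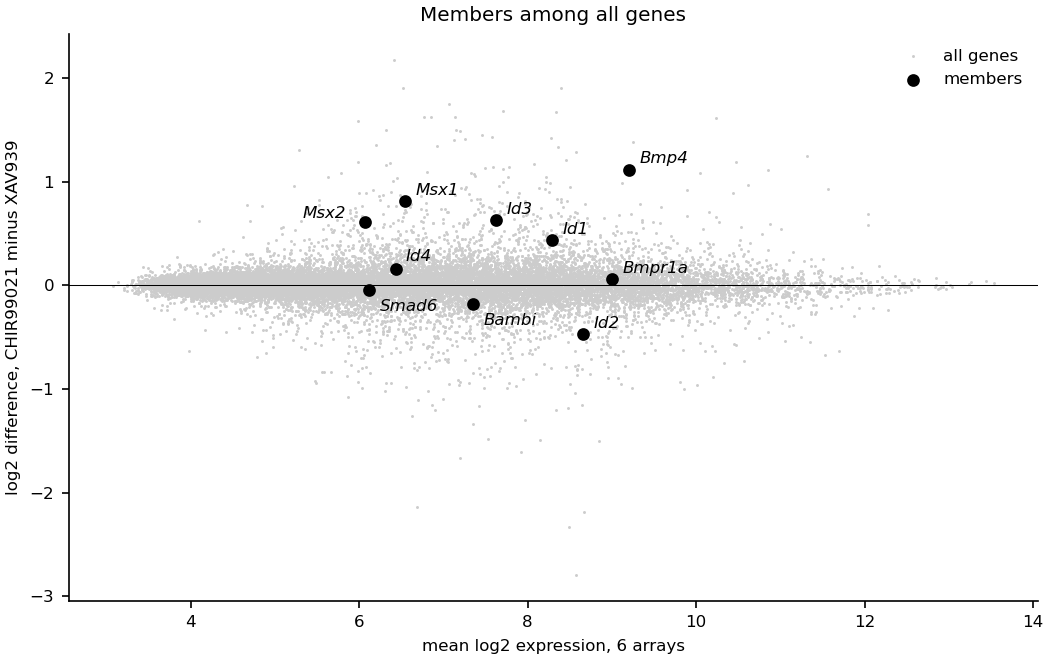
Log2 difference between CHIR99021 and XAV939 against mean log2 expression over the 6 arrays for 19937 genes (grey points), with the 10 genes in black and named. The median of all probe sets is 5.68 and all 10 genes lie above it, and Bmp4 is the one furthest from 0.

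The bases before the start sites of the genes that rose and of Id2, which fell, are shown to set the regions of genes that moved in opposite directions side by side. Of the 10 genes, 8 matched the RefSeq table of gene starts (GRCm38.p6), and Id1 and Bambi are named only. The windows are the 250 bases before the start, on the gene's strand, at chr14:46390670-46390919 (minus strand) for Bmp4, chr4:136143572-136143821 (plus) for Id3, chr5:37824586-37824835 (minus) for Msx1, chr13:53472781-53473030 (minus) for Msx2 and chr12:25096093-25096342 (minus) for Id2. Each is written 5′ to 3′, and capitals mark GGCGCC, the core of a GC-rich element that SMAD proteins are known to bind, and CCAAT or its reverse complement ATTGG, the box bound by NF-Y.
Bmp4: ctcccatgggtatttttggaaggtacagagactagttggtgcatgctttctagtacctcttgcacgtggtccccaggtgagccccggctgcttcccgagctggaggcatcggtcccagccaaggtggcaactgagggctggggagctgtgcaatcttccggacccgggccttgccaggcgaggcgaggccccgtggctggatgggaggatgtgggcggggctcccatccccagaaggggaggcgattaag
Id3: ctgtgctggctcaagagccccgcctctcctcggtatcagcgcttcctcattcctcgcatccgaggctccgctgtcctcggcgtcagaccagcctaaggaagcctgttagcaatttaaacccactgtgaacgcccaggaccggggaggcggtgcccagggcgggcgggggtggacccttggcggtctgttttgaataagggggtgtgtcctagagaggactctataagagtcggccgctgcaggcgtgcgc
Msx1: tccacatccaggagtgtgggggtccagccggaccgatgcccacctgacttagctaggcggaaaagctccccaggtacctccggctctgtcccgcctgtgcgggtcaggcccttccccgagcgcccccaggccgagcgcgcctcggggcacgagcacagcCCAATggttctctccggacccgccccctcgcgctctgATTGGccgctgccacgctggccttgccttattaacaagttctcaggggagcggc
Msx2: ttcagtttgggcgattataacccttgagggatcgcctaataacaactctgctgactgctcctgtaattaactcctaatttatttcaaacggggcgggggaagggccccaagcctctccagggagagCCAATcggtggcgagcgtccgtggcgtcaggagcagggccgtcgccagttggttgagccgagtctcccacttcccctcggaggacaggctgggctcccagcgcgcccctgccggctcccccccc
Id2: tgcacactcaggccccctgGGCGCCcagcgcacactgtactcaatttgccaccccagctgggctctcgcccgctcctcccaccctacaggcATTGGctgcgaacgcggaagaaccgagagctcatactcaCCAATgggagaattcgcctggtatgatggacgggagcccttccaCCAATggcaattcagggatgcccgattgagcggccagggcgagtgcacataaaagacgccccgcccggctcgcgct

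These windows were rich in G and C, with 63.2% for Bmp4, 62.8% for Id3, 68.0% for Msx1, 61.6% for Msx2 and 62.8% for Id2, where the median of 32851 windows was 52.4%. GGCGCC, searched on both strands, was present before Id2 and, of the windows not printed, before Id4 and Bmpr1a, and 9.59% of all windows held it. In Id2 it began 231 bases before the start. The Bmpr1a window, chr14:34502547-34502796 (minus), lies inside the annotated gene, which ends at 34503336, so the start used there is internal. The Smad6 window, chr9:64022060-64022309 (minus), overlaps its gene, which ends at 64022085. CCAAT was present 3 times before Id2, 2 times before Msx1 and 1 time before Msx2 and, of the windows not printed, 2 times before Id4 and 1 time before Bmpr1a, so that 5 of the 8 windows held it, and 33.8% of all windows held it on either strand. The longer TGGCGCC, which contains GGCGCC, and CTTTGA, the core bound by TCF/LEF factors, were not found on either strand in the 8 windows. They were present in 3.21% and 13.8% of all windows. A match is a description of letters in these windows and not of a binding site.

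Other genes of the pathway were read from lists of ligands, receptors, SMADs, secreted modulators, BMP-responsive factors and helix-loop-helix partners. Beside the counts of these and the later lists stand the shares over all genes, 5.31% higher and 4.34% lower. Of 15 other ligand genes, 1 rose, 1 fell and 13 did not pass, with a median difference of 0.031. Bmp2, which encodes a ligand closely related to BMP4, rose by 1.31 ± 0.09 (SE), or 2.48-fold (limma, adjusted p = 9.56e-06), from a log2 level of 4.63 ± 0.09 (SD, n = 3) with XAV939 to 5.94 ± 0.19 (SD, n = 3) with CHIR99021. The mean of its probe set, 5.29, was below the median of all probe sets, unlike that of Bmp4. Gdf3, a TGF-β family ligand expressed in pluripotent cells, was lower, with a difference of -0.30 ± 0.05 (SE; limma, adjusted p = 0.00471). Without XAV939 replicate 1, 2 ligand genes rose.

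None of the 9 other receptor and co-receptor genes passed in limma, and at an unadjusted p under 0.05 there was 1 higher and 1 lower. Their differences lay between -0.15 and 0.17, beside 0.060 for Bmpr1a. The smallest unadjusted p values were 0.0197 for Eng, the co-receptor endoglin (difference 0.17), and 0.0272 for Acvr2a, a type II receptor (-0.15). In the list of 14 SMADs and their modifiers, 1 gene rose, 2 fell and 11 did not pass, with a median of -0.018. Smad7, an inhibitory SMAD like Smad6, rose by 0.37 ± 0.07 (SE; limma, adjusted p = 0.00788). Skil, which encodes the SMAD co-repressor SnoN, was lower by -0.89 ± 0.07 (SE; limma, adjusted p = 2.56e-05), and Zfp423, a zinc finger partner of SMADs, by -0.65 ± 0.07 (SE; limma, adjusted p = 2.60e-04). The call of Smad7 was lost when all probe sets were tested. Without XAV939 replicate 1, 2 genes of this list rose and 3 fell, and without CHIR99021 replicate 3, 3 fell. At an unadjusted p under 0.05 in limma, 3 genes of the list were higher and 3 lower. The genes that carry the signal itself, named after their values were seen, did not pass, with differences of 0.21 for Smad1, 0.038 for Smad5, -0.031 for Smad9 and 0.11 for Smad4.

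Secreted modulators of BMP ligands numbered 17, of which 4 rose, 1 fell and 12 did not pass, with a median of 0.051. Fstl1, a follistatin-related glycoprotein, rose by 0.95 ± 0.06 (SE; limma, adjusted p = 9.05e-06), and Fst, which binds activins and some BMPs, by 0.69 ± 0.05 (SE; limma, adjusted p = 1.74e-05). Nog, the BMP antagonist noggin, rose by 0.29 ± 0.06 (SE; limma, adjusted p = 0.0162), a call lost without XAV939 replicate 2 or 3 (adjusted p up to 0.0653) or with all probe sets tested (0.0782). Bmp1 and Tll1 encode related metalloproteases that cleave chordin, and they moved in opposite directions. Bmp1 rose by 0.54 ± 0.06 (SE) and Tll1 was lower by -0.31 ± 0.05 (SE), with limma's adjusted p of 3.54e-04 and 0.00444. The mean of Tll1, 5.04, was below the median of all probe sets.

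Of 18 other BMP-responsive transcription factor genes, 1 rose, none fell in limma (3 at an unadjusted p under 0.05) and 17 did not pass, with a median of 0.0051. The gene that rose was Tfap2c, an AP-2 factor of trophectoderm and germ cells (0.24 ± 0.05, SE; limma, adjusted p = 0.0192). It did not pass when CHIR99021 replicate 1, CHIR99021 replicate 2 or XAV939 replicate 3 was left out (adjusted p up to 0.0837), nor with all probe sets tested (0.0647). The count of the list was 0 without CHIR99021 replicate 2 or XAV939 replicate 3, 2 without XAV939 replicate 1 or with arrays centred on their medians, and 3 when genes under the 25th percentile of level were left out.

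Id proteins act by binding other helix-loop-helix proteins, and 25 genes of such E proteins, proneural and related factors were measured. Of these 3 rose, 2 fell and 20 did not pass, with a median of -0.010. The E protein gene Tcf4 rose by 0.30 ± 0.06 (SE; limma, adjusted p = 0.00669), while those of the other E proteins, Tcf3 and Tcf12, named after their values were seen, differed by 0.035 and 0.16 and did not pass. Hes1, a repressor downstream of Notch, rose by 0.45 ± 0.06 (SE), and Twist2, a mesenchymal factor, by 0.36 ± 0.06 (SE). Neurod1, a proneural factor, was lower by -0.69 ± 0.10 (SE), and Hes6, a promoter of neuronal differentiation, by -0.42 ± 0.07 (SE). The adjusted p of these 4 genes was between 8.62e-04 and 0.00263 in limma. The mean of Neurod1, 4.78, was below the median of all probe sets. Without CHIR99021 replicate 3, 4 genes of this list fell.

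**Figure D4:**
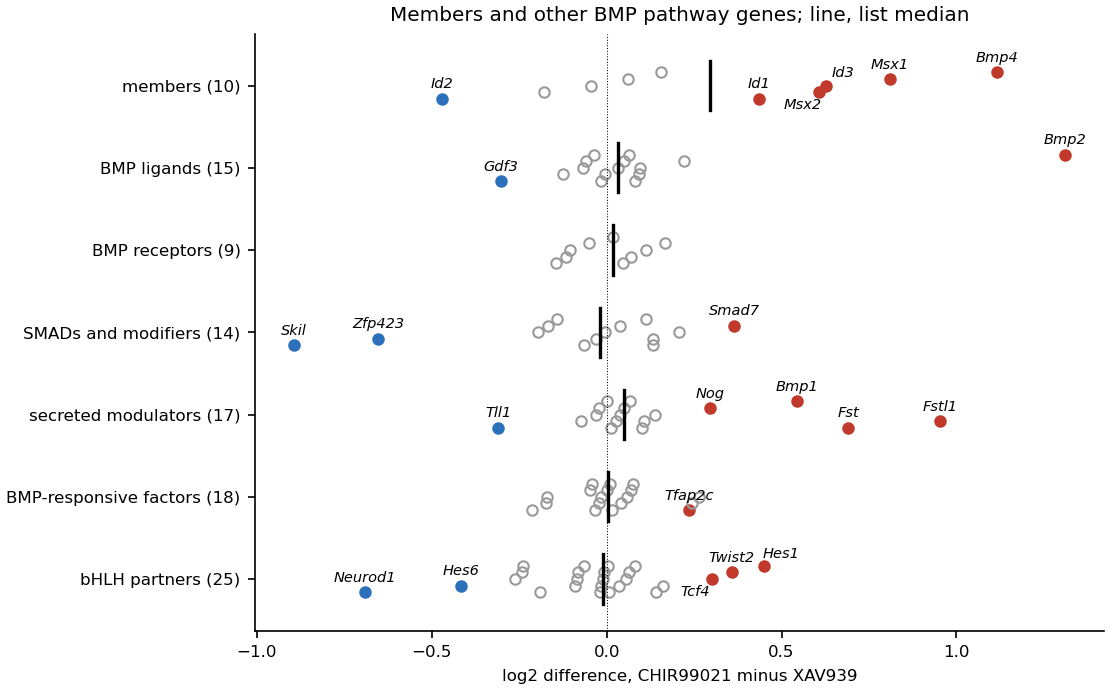
Log2 difference between CHIR99021 and XAV939 (one point a gene) for the 10 genes and for 6 lists of other pathway genes, with genes that passed limma's test filled and named, red for higher and blue for lower, and a line at each list's median. The medians of the 6 lists lie between -0.018 and 0.051, and most of their points are open.

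Some markers of other cells that the cultures could hold also differed between the treatments, where 5.31% of all genes rose and 4.34% fell. Some genes stand in more than 1 list, among them Twist2 (also a feeder marker) and Tfap2c (also a trophectoderm marker). Among 24 markers of feeder fibroblasts, cells that can express Bmp4, Id and Msx genes, 8 rose, 1 fell and 15 did not pass, with a median difference of 0.084. The sum of their unlogged values was 3683 to 3965 on the CHIR99021 arrays and 2823 to 2949 on the XAV939 arrays. Such a sum is weighted to the most abundant markers and does not measure the amount of feeder RNA. Of the markers named here, Tagln and Acta2 had the highest levels. Their log2 means were 10.23 and 9.65 with CHIR99021 and 9.56 and 9.29 with XAV939. The type I collagen gene Col1a1 rose by 1.05 ± 0.05 (SE; limma, adjusted p = 1.56e-06), Tagln by 0.67 ± 0.07 (SE), Pdgfrb by 0.59 ± 0.05 (SE) and Acta2 by 0.35 ± 0.05 (SE), and Mmp2 was lower (-0.39 ± 0.07, SE). The median of all probe sets was exceeded by 14 of these markers. RMA values have no 0, and no detection call was made. Of 13 trophectoderm markers, 8 rose, 5 did not pass and none fell in limma (1 at an unadjusted p under 0.05), with a median of 0.61 and sums of 7948 to 8244 and 4238 to 4525 in the CHIR99021 and XAV939 groups. Cdx2 rose by 1.63 ± 0.10 (SE), Krt18 by 1.19 ± 0.07 (SE), Eomes by 1.18 ± 0.08 (SE) and Krt7 by 0.88 ± 0.06 (SE). Of 13 streak and mesoderm markers, 4 rose, 9 did not pass and none fell in limma (0 at an unadjusted p under 0.05), with a median of 0.069 and sums of 877 to 1004 and 717 to 805. Mixl1 rose by 1.50 ± 0.10 (SE), Wnt3 by 0.86 ± 0.10 (SE), Evx1 by 0.44 ± 0.08 (SE) and Fgf8 by 0.33 ± 0.07 (SE). The mean of Evx1, 5.58, was below the median of all probe sets. Fgf8 did not pass when CHIR99021 replicate 1 or 3 or XAV939 replicate 2 was left out. The part of these cells in the differences of the 10 genes was not tested. In RNA of whole cultures, fewer cells of a type and less RNA per cell cannot be told apart.

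The gene whose pattern over the 6 arrays was most like that of each gene that passed was taken from 10917 named genes above the median level, predicted genes left out, by the root mean square difference of values centred on each gene's mean. For Bmp4 this was the keratin gene Krt19 (0.060), for Id1 the receptor kinase gene Ror2 (0.023) and for Id3 the homocysteine methyltransferase gene Bhmt2 (0.031). For Id2 it was Pls3, an actin-bundling plastin (0.025), for Msx1 Cmtm7 (0.066) and for Msx2 the metalloproteinase inhibitor gene Timp1 (0.052). Pls3 was lower with CHIR99021, by -0.50, and the others were higher. These directions follow from the way the genes were picked and are not a further result.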

How the data were processed

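RNA was extracted with TRIZOL and a purification column, and 300 ng a sample was labelled with Affymetrix whole-transcript kits, per the labels' protocols. The deposited values are log2 expression, summarised by the authors with RMA, per the submitters' processing notes. RMA corrects background, equalises array distributions and summarises probes, and it compresses differences of weakly expressed genes. Neither its version nor a genome build is given in the sources used here. Scan dates were not analysed here.

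In the platform annotation 21640 of 34760 probe sets named a single gene, 1321 named several and 11799 had no name. Where a gene had several, that of highest mean was kept, which left 19937 genes. Treatments were compared with limma 3.58.1 (lmFit, eBayes) in R 4.3.3, unfiltered, with p-values adjusted by Benjamini-Hochberg over all genes and called under 0.05. There were 4 residual and 6.15 prior degrees of freedom. The procedure was also run on simulated data with planted differences and independent normal noise, which does not cover correlated genes or technical replicates. Exact permutation of 3 against 3 arrays was not used, since its p is never below 0.1. Promoter windows came from a RefSeq table, and plots were drawn with matplotlib 3.10.9.

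The genes and lists were chosen with earlier results of these data known, and no list was tested as a set. The text names, for each list and direction, up to 4 called genes by smallest p, or 2 genes if the list had no call. Pou5f1 and the other genes said to be so were named after their values were seen. The search for CCAAT was added after the windows were seen. The planned comparison of protein sequences was not run. Alternatives were array centring, repeated quantile normalisation, filters at the 25th and 50th percentile of level, means over a gene's probe sets, all probe sets tested, trended robust variance, ordinary least squares, array weights, a replicate block, a threshold of 0.01 and leaving out each array.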

Additional observations from a re-analysis of the deposited data

How the results depend on the processing

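The 6 calls among the 10 genes kept their direction in all 17 alternatives, and their side of the threshold in all but ordinary least squares, where 1 gene was higher and 0 lower. That fit uses the 4 residual degrees of freedom of each gene alone. Of the other 4 genes, Id4 and Bambi kept direction and stayed short of the threshold. Bmpr1a turned to -0.019 without XAV939 replicate 1, and Smad6 turned to 0.038 without that array and to 0.040 with array weights, and the cause was not tested. With 1 array left out, Bmpr1a was between -0.019 and 0.13 and Smad6 between -0.11 and 0.038, none past the threshold.

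Over all genes, 1058 higher calls became 698 with all probe sets tested, 350 with ordinary least squares and 621 at a threshold of 0.01. The 866 lower calls became 289 with ordinary least squares, 1409 with array weights and 497 at a threshold of 0.01. With 1 array left out, higher calls numbered 726 to 1130 and lower calls 528 to 1117, with 573 without CHIR99021 replicate 1 and 528 without CHIR99021 replicate 2. In the 6 pathway lists together, the 10 higher and 6 lower calls became 8 to 13 and 6 to 9 when 1 array was left out. Of 40 called genes named from the pathway and marker lists, 20 lost their call with ordinary least squares (adjusted p 0.0518 to 0.244), among them Smad7, Zfp423, Nog, Tll1, Tfap2c, Hes1, Twist2, Tcf4, Neurod1 and Hes6 of the pathway lists. All probe sets tested ended 9 of the 40 calls, those of Smad7, Nog, Tfap2c, Mmp2, Zfp42, Lin28a, Sall4, Dab2 and Fgf8, and the threshold of 0.01 ended 7.

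Arrays with the same replicate number did not deviate together, with correlations of deviations of -0.096, 0.060 and -0.14 for numbers 1, 2 and 3, so the numbers were not taken to pair the samples. With a replicate block, 5 of the 10 genes were higher and 1 was lower, as without it, and of the 40 list genes Lin28a, Sall4 and Dab2 lost their call (adjusted p 0.0534 to 0.0886). The number of arrays limits the precision, and for Bmpr1a the 95% interval reached from -0.10 to 0.22.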

Other observations

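Of 12 surface ectoderm and neural crest markers, 1 rose, 1 fell and 10 did not pass, with a median of 0.0070. Krt14, a keratin of basal epidermis, rose by 0.82 ± 0.07 (SE), and Grhl2, an epithelial transcription factor, was lower (-0.40 ± 0.06, SE; limma, adjusted p = 3.99e-05 and 0.00213). Without XAV939 replicate 2, 2 of these markers fell. Of 12 primitive endoderm markers, 2 rose, 1 fell and 9 did not pass, with a median of 0.097, with Lama1 at 0.26 ± 0.05 (SE), Sparc at 0.27 ± 0.06 (SE) and Dab2 at -0.35 ± 0.09 (SE), and Dab2 did not pass when CHIR99021 replicate 1, CHIR99021 replicate 2, XAV939 replicate 1 or XAV939 replicate 2 was left out, nor with a replicate block (limma, adjusted p = 0.0534). The mean of Dab2, 5.20, was below the median of all probe sets. Of 10 pluripotent cell markers, 2 rose, 4 fell and 4 did not pass, with a median of -0.19. Nanog was at 0.49 ± 0.05 (SE) and Zfp42, also known as Rex1, at 0.25 ± 0.06 (SE). The members that fell were Utf1 (-0.67 ± 0.09, SE), Tdgf1, a co-receptor of Nodal (-0.63 ± 0.07, SE), Lin28a, an RNA-binding protein (-0.21 ± 0.05, SE), and Sall4, a zinc finger factor (-0.20 ± 0.05, SE). Sall4 lost its call whichever array was left out (limma, adjusted p up to 0.169). Among these omissions Lin28a kept its call only in that of XAV939 replicate 1 (adjusted p = 0.0367). Neither gene passed with a replicate block. The count of markers that fell stayed at 4 in the omission of XAV939 replicate 1, although Sall4 was lost, so equal counts need not hold the same genes. That count was 3 with CHIR99021 replicate 3 omitted, and 2 for each other array and for the replicate block. Zfp42 lost its call on dropping XAV939 replicate 2, CHIR99021 replicate 3 or CHIR99021 replicate 1, and the count of markers that rose was then 1.

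Among the XAV939 arrays, replicate 1 was the one farthest from the mean of the other two for 8 of the 10 genes, as it was for 47.9% of all genes. Among the CHIR99021 arrays this was replicate 2 for 7 of the 10 genes, against 26.3% of all genes, while replicate 3 was the farthest for 1 of the 10 and for 43.8% of all genes. These counts were made after the values were seen, and the genes are not independent of each other.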
